A study of Mus musculus with 4 samples.

Results

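The genes described here are 10 components and direct targets of bone morphogenetic protein (BMP) signalling, out of 54532 genes in a deposited RNA sequencing table of mouse epidermal stem cells. They were picked by gene symbol: the 4 inhibitor of DNA binding genes Id1, Id2, Id3 and Id4, the inhibitory genes Smad6, Smad7 and Bambi, the ligand gene Bmp7, and the receptor genes Bmpr1a and Bmpr2. All 10 symbols were found, each in 1 row, and all 10 passed the low-count filter that left 14056 genes. In GRCm38 coordinates of the table, Id1 lies at chr2:152736251-152737410, Id2 at chr12:25093799-25097140, Id3 at chr4:136143497-136145755 and Id4 at chr13:48261228-48266026. Smad6 lies at chr9:63953076-64022059, Bmp7 at chr2:172868012-172940321, Bmpr1a at chr14:34410734-34503341 and Bmpr2 at chr1:59763400-59879014. Exons of Id4 and Bmpr1a overlap genes on the opposite strand, each by at most 4.57% of the exon bases, and those genes had at most 7 counts in all. Id4 and Bambi, at 9 and 2 counts in a single ALP library, passed through the other libraries. The choice was made with the comparison of these same libraries known, so the members' values are a description and carry no p-value.

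The treated cultures received 30 μg/mL ALP for 48 h, ALP being read as the Arctium lappa L. (burdock) polysaccharide of the series title, and the control cultures received 0.06% DMSO for 48 h. Each group had 2 libraries, named A and B here without any pairing. Both groups were epidermal stem cells taken from C57BL/6 mouse skin and grown in EpiLife medium with a keratinocyte growth supplement. The age and number of the mice, whether libraries came from separate cultures, and whether ALP cultures also held DMSO, are points the labels leave out, and the spread between libraries may be technical. Totals were 17430345 and 15766244 counts in the ALP libraries and 17415047 and 17360445 counts in the control libraries. The ALP libraries differed from each other more than the control libraries did, with a chi-square per degree of freedom of 24.1 and 6.40 for the pairs.

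BMPs are secreted dimers that bring together type I and type II serine/threonine kinase receptors. The activated receptors phosphorylate SMAD1, SMAD5 and SMAD9, which join SMAD4, enter the nucleus and switch on targets such as the Id genes, Smad6, Smad7 and Bambi. Id proteins have a helix-loop-helix but no DNA-binding region, so they hold E proteins away from their E-box sites. In skin, BMP signals are known to keep hair follicle stem cells quiet and to act in epidermal differentiation.

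All 4 Id genes were lower in both ALP libraries than in both control libraries, as were 37.5% of all genes tested. The decrease was deepest in ALP replicate B. Id1, the classical immediate target of BMP-activated SMADs, measured 17.1 and 0.905 CPM (counts scaled to library size by TMM) in ALP replicates A and B, against 50.4 and 42.0 CPM in control replicates A and B. ALP replicate B thus held 14 Id1 counts, which is 1.96% of the control level (95% exact Poisson interval 1.07% to 3.30%, counting error only), while ALP replicate A stood at 37.1% of it. The fitted log2 difference of Id1, ALP minus control, was -2.34 ± 0.96 (SE, n = 2 per group).

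Id2, whose product also restrains E proteins in many progenitor cells, measured 13.0 and 2.46 CPM in ALP and 33.2 and 26.2 CPM in control. Its log2 difference was -1.93 ± 0.65, with ALP replicate A at 43.8% and ALP replicate B at 8.26% of the control mean. Id3, a close relative of Id1 with a largely overlapping role, measured 23.6 and 8.47 CPM in ALP and 46.8 and 46.7 CPM in control. The 2 controls were nearly equal for Id3, the ALP libraries were 2.79-fold apart, and its log2 difference was -1.54 ± 0.44. Id4, the scarcest of the family per length, measured 2.14 and 0.582 CPM in ALP and 7.02 and 5.03 CPM in control, a log2 difference of -2.11 ± 0.51. Groups did not overlap for any of the 4 genes, as for 75.7% of all genes tested in either direction. ALP replicate A lay between ALP replicate B and the controls each time.

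**Figure D1:**
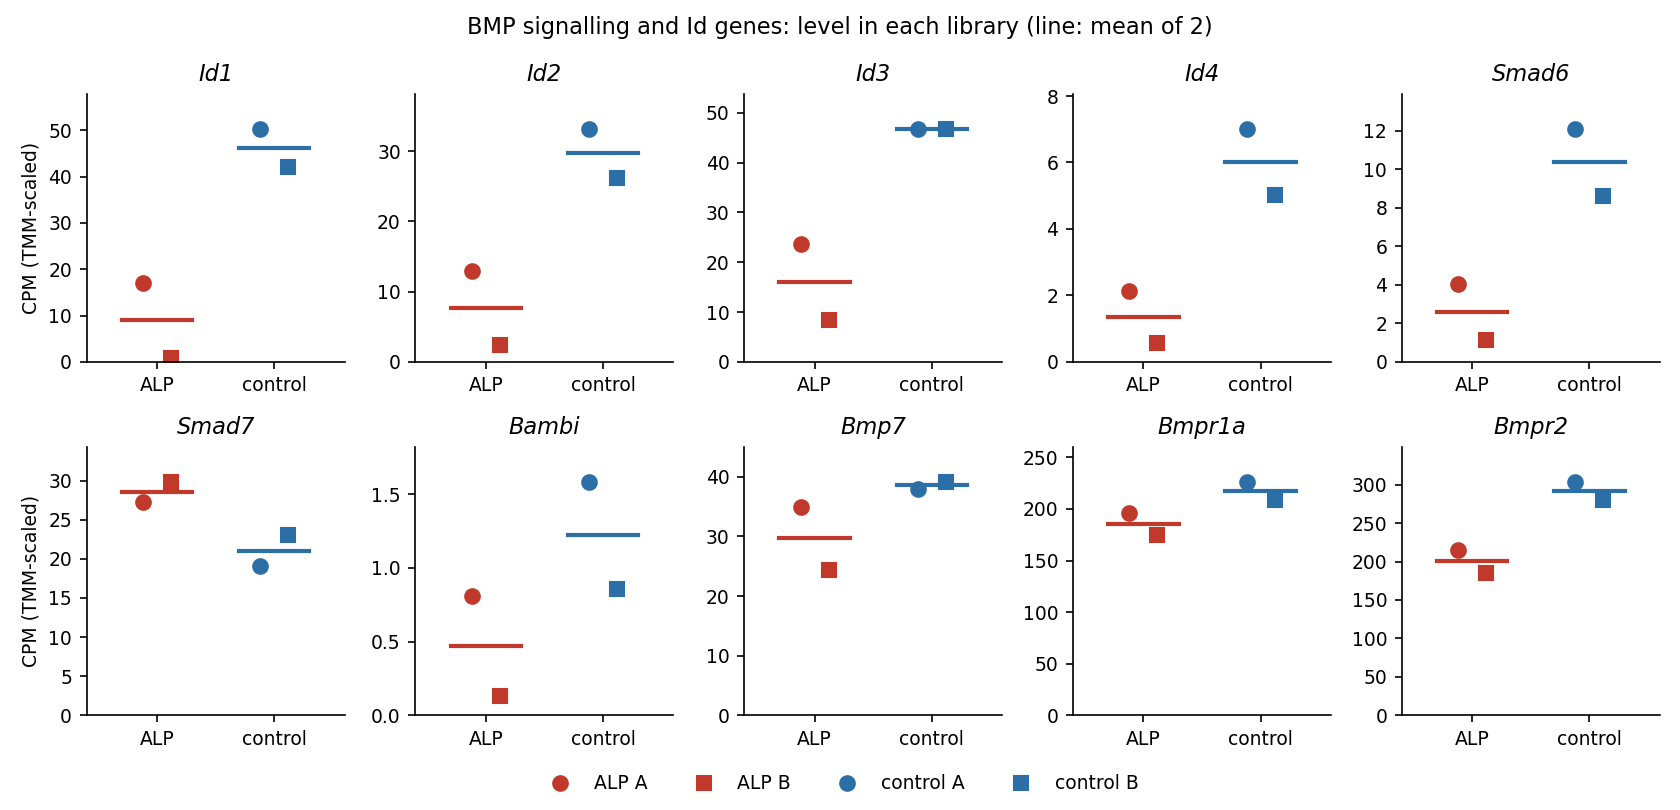
Level of each of the 10 genes in each library, in TMM-scaled CPM on linear axes that start at 0, with ALP left of control. Circles are replicate A, squares replicate B and lines the mean of 2 libraries. The Id genes and Smad6 are low in ALP replicate B and intermediate in ALP replicate A, whereas Smad7 is higher in both ALP libraries.

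Per gene length, the Id family as a whole was smaller in both ALP libraries. Its make-up differed mainly in ALP replicate B, where Id1 had 14 counts. In CPKM (counts per library size and kilobase of gene, from the deposited counts and gene lengths), Id1 to Id4 summed to 33.6 and 6.54 in ALP and to 86.2 and 74.9 in control. Id1 made up 43.6% and 11.7% of that sum in ALP and 51.1% and 48.7% in control. Id3 made up 38.9% and 70.9% in ALP and 30.7% and 35.1% in control, so in ALP replicate B it was Id3 and not Id1 that led the family. Id2 kept between 14.5% and 16.0% of the family in all 4 libraries.

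**Figure D2:**
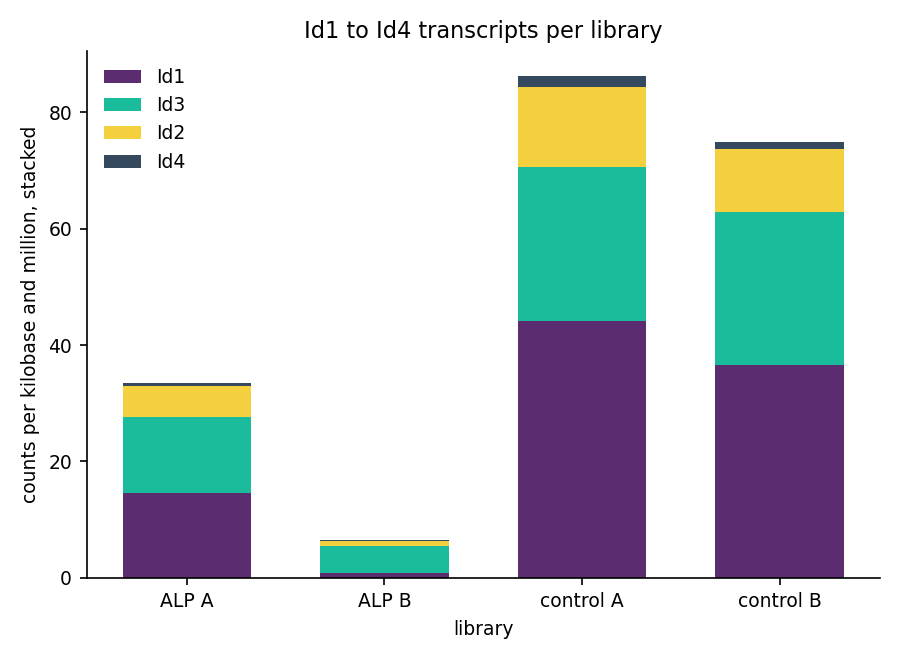
Length-scaled level (CPKM) of Id1, Id3, Id2 and Id4 stacked for each library, ALP left and control right, with bars from 0. The summed level is 33.6 and 6.54 CPKM in ALP and 86.2 and 74.9 CPKM in control, and Id1 is a thin band in ALP replicate B.

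The summed markers of differentiated keratinocytes stood in the same order of libraries as the Id genes. Krt1, Krt10, Lor, Ivl, Flg and Dsg1a summed to 904 and 42.3 CPM in ALP and to 3483 and 2871 CPM in control. Krt1 was the largest part, at 663 and 19.7 CPM in ALP and 2511 and 2086 CPM in control. Lor and Flg were called lower, Ivl was called higher, and Krt1, Krt10 and Dsg1a were not called. Of 8 basal markers all were detected, and they summed to 37772 and 31743 CPM in ALP and to 49242 and 49571 CPM in control. Among the basal markers Itga6, Itgb1 and Itgb4 rose and Trp63 and Col17a1 fell. Krt5 and Krt14, the largest parts of the basal sum, were lower in both ALP libraries than in both controls. Their log2 differences were -0.64 and -0.58, and neither was called. Krt15 measured 58.4 and 1.75 CPM in ALP and 251 and 201 CPM in control without passing. In bulk RNA, fewer cells of a type and less RNA per cell cannot be told apart, and the part of differentiated cells in the Id gene values was not tested.

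The inhibitory SMAD genes stood on opposite sides of the controls. Smad6, whose product blocks BMP receptors and SMAD1 and is itself a BMP target, measured 4.05 and 1.16 CPM in ALP and 12.1 and 8.63 CPM in control. Its log2 difference was -1.97 ± 0.51, close in size to those of Id2 and Id4. Smad7, whose product blocks both BMP and TGF-beta receptors, measured 27.3 and 29.9 CPM in ALP and 19.0 and 23.1 CPM in control. That is a log2 difference of 0.44 ± 0.15, and Smad7 was the only member higher in both ALP libraries than in both controls. Bambi, which encodes a pseudoreceptor that lacks the kinase domain, was near the detection limit with 14 and 2 counts in ALP and 28 and 15 counts in control. ALP replicate B stood at 10.6% of the control level of Bambi with a counting interval of 1.24% to 40.6%, and ALP replicate A at 66.2% with an interval of 33.5% to 123%, which includes no difference.

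The differences of Bmp7, Bmpr1a and Bmpr2 were smaller in size than those of the 4 Id genes. Bmp7, a ligand made by epidermal keratinocytes, measured 34.9 and 24.4 CPM in ALP and 38.0 and 39.2 CPM in control, a log2 difference of -0.38 ± 0.18. Bmpr1a, a type I receptor gene, measured 196 and 174 CPM in ALP and 226 and 208 CPM in control (log2 difference -0.23 ± 0.10). Bmpr2, the type II receptor gene, measured 216 and 186 CPM in ALP and 304 and 280 CPM in control (log2 difference -0.54 ± 0.11). For these 3 genes both ALP libraries lay below both controls, as for 37.5% of all genes tested. For Bmp7 and Bmpr1a, however, ALP replicate A stood at 90.4% and 90.3% of the control mean. The CPKM ratio of Bmpr1a to Bmpr2 was 2.58 and 2.66 in ALP and 2.11 and 2.10 in control. The Id family sum relative to the sum of both receptor genes, by contrast, was 0.789 and 0.177 in ALP and 1.62 and 1.54 in control.

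**Figure D3:**
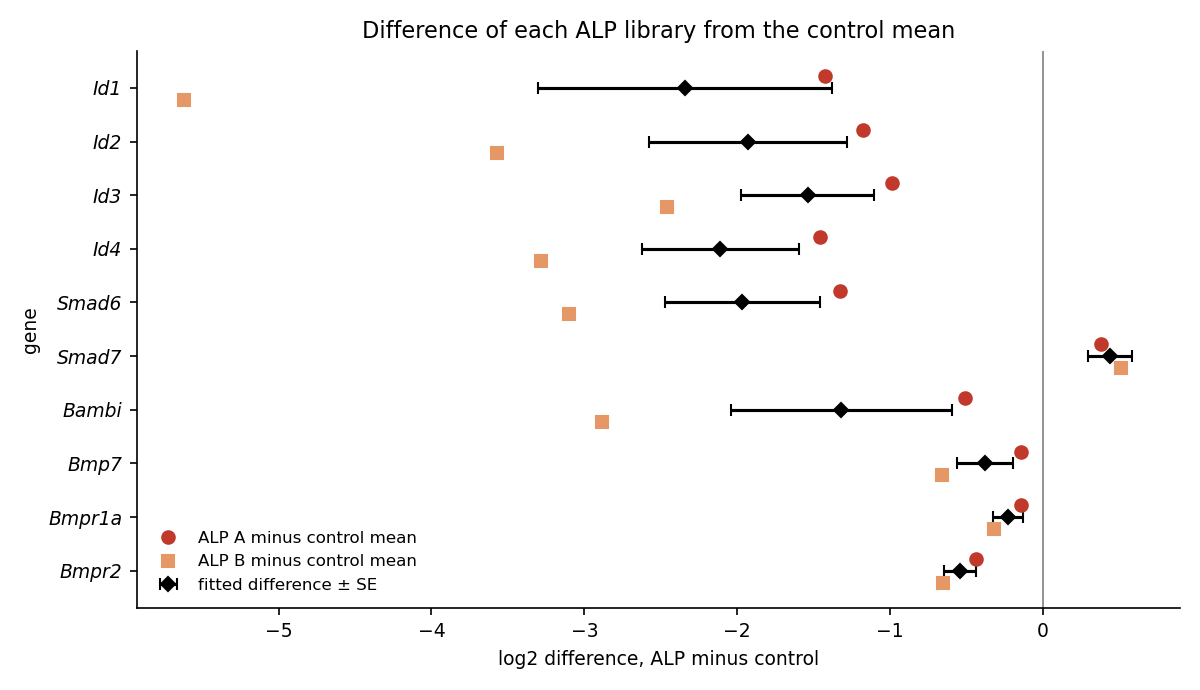
Log2 difference from the control mean for ALP replicate A (circles) and ALP replicate B (squares), with the fitted difference and its standard error (diamonds, n = 2 per group), for each gene on its own row. Id1 runs from -1.42 in ALP replicate A to -5.62 in ALP replicate B, while Smad7, Bmpr1a and Bmpr2 differ little between the ALP libraries.

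In ALP cultures the order of levels per length left most neighbours overlapping, and in control cultures it did not. After ALP the means were 28.8 ± 2.63 CPKM for Bmpr1a, 11.0 ± 1.24 for Bmpr2, 8.85 ± 5.96 for Id3, 7.70 ± 9.81 for Id1, 7.29 ± 1.87 for Bmp7, 6.23 ± 0.357 for Smad7 and 3.14 ± 3.04 for Id2 (SD, n = 2). Smad6, Id4 and Bambi followed at 0.805 ± 0.634, 0.350 ± 0.285 and 0.0923 ± 0.0949 CPKM. From Bmpr2 down, neighbours in this order overlapped in range at every step except between Smad7 and Id2. In control cultures Id1 came first at 40.3 ± 5.34 CPKM, ahead of Bmpr1a at 34.6 ± 2.16, Id3 at 26.4 ± 0.168, Bmpr2 at 16.4 ± 1.002 and Id2 at 12.3 ± 2.11. Bmp7 at 9.71 ± 0.173, Smad7 at 4.71 ± 0.622, Smad6 at 3.27 ± 0.792, Id4 at 1.58 ± 0.377 and Bambi at 0.245 ± 0.104 CPKM completed the order, and no neighbouring ranges overlapped among the controls.

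In edgeR's quasi-likelihood test, adjusted over all 14056 genes, 4 of the 10 lay past the threshold of 0.05, all lower in ALP, a count given only as a description. Over all genes tested 30.9% passed in either direction and 12.9% passed as lower, and nothing is read from the members' count because this contrast chose them. The median log2 difference was -1.43 over the 10 genes and -0.00 over all genes tested. Both ALP libraries lay below both controls for 9 of the 10 genes, as for 37.5% of all genes tested. The groups were separate in either direction for all 10, as for 75.7% of all genes. For Bambi that separation was 14 counts in ALP replicate A against 15 in control replicate B (0.810 and 0.857 CPM), well within counting error. The count of 4 past the threshold depended on the method and on the libraries kept. It was 3 by DESeq2, 6 by limma-voom and 0 in edgeR with no low-count filter, beside 4091, 4741 and 0 of all genes.

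The 2 ALP libraries stood far apart for several members, a description only, because the members were chosen with these libraries known. The shares given here are over genes of all levels. Counting error is larger at low counts, as for Bambi (14 and 2 in ALP) and Id4 (37 and 9). On the log2 scale ALP replicate B lay below ALP replicate A by 4.19 for Id1, a gap exceeded in size by 0.341% of the genes tested. The gap was 2.39 for Id2, 2.38 for Bambi, 1.82 for Id4, 1.77 for Smad6 and 1.48 for Id3, and between 1.72% and 4.63% of genes had a larger one. Over all genes tested the median gap was 0.22 between the ALP libraries and 0.12 between the controls, and ALP replicate B was the lower one for 50.6% of genes. Among 759 other genes that stood between -1.5 and -0.9 in ALP replicate A, as the Id genes and Smad6 did (a window chosen after their values were seen), the median in ALP replicate B was -1.82 with quartiles of -2.60 and -1.08. Id1, Id2, Id4 and Smad6, at -5.62, -3.57, -3.28 and -3.10 there, lay below that lower quartile, and Id3 at -2.46 did not. For 74.4% of those 759 genes ALP replicate B was the lower ALP library, so that direction was common among them.

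**Figure D4:**
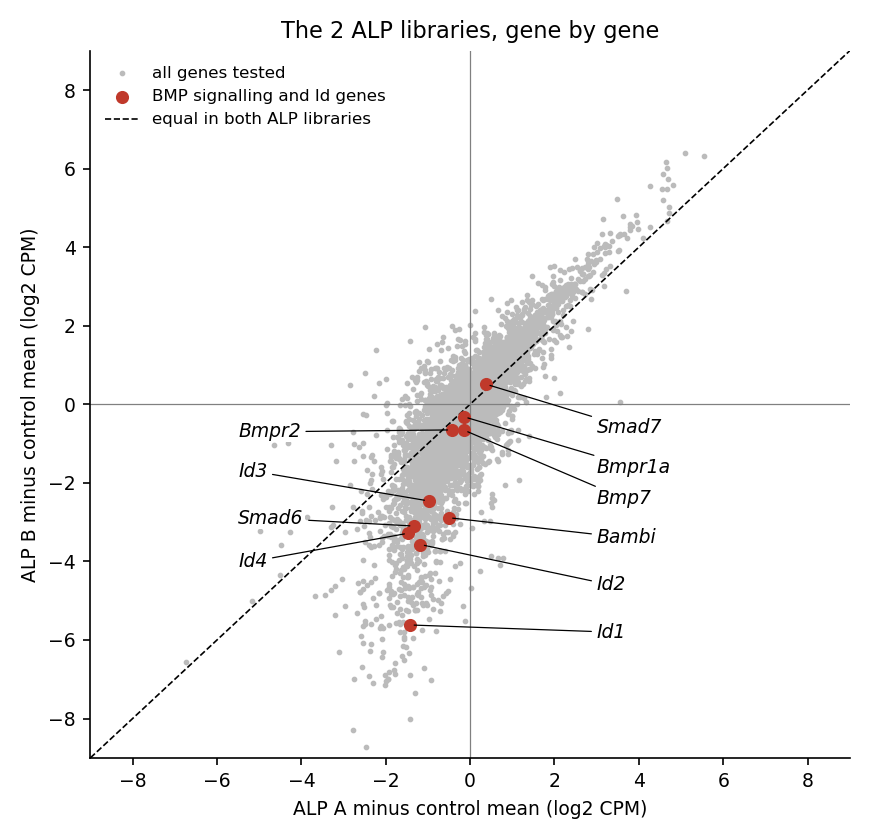
Each gene tested (grey, 14056 genes) by its log2 CPM difference from the control mean in ALP replicate A (horizontal) and ALP replicate B (vertical), with the 10 BMP signalling and Id genes in red. The dashed line marks equal differences. The Id genes, Smad6 and Bambi lie well below the line, and the receptor genes, Bmp7 and Smad7 lie close to it.

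Promoter sequence is shown for Id2, Id3, Id4 and Smad6, from RefSeq's table for GRCm38.p6. Each window runs from 250 bases before to 30 bases after the transcription start, on the sense strand. Id1 had no entry in that table, and the promoter of Bambi is not reported here. The 4 windows lie at chr12:25096063-25096342 (minus strand) for Id2, chr4:136143572-136143851 (plus) for Id3, chr13:48260866-48261145 (plus) for Id4 and chr9:64022030-64022309 (minus) for Smad6. Capitals mark GGCGCC, the GC-rich motif bound by SMAD1 and SMAD5, and GTCT or its reverse complement AGAC, the core of the SMAD binding element. GGCGCC reads the same on both strands.
Id2: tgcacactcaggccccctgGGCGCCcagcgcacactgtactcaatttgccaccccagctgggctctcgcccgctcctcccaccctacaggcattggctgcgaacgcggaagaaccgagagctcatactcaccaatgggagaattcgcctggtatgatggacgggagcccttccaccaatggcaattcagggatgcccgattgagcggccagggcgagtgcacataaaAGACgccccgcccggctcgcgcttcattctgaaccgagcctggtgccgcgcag
Id3: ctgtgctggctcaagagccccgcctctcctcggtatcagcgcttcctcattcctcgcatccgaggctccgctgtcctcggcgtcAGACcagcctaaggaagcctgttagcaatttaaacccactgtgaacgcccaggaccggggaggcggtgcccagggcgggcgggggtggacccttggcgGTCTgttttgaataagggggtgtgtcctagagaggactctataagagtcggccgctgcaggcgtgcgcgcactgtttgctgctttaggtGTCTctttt
Id4: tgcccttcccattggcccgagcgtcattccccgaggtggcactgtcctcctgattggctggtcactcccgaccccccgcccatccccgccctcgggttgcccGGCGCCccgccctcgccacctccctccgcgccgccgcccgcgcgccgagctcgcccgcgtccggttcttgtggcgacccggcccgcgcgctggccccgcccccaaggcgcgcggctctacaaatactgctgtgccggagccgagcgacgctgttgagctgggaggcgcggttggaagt
Smad6: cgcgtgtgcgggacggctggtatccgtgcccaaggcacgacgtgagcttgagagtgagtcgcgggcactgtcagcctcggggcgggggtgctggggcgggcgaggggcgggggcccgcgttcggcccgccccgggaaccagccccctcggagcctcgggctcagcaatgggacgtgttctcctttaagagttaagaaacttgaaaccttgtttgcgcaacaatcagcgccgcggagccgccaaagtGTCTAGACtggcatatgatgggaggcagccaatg
GGCGCC occurred once each in the windows of Id2 and Id4, 231 and 148 bases upstream of the start, and was not found in those of Id3 and Smad6. It also stood in the windows of Bmpr1a and Bmpr2, which had smaller differences, and in 10.9% of 32851 windows of this length. The SMAD core was found 3 times for Id3, 2 times for Smad6, 1 time for Id2 and not for Id4, against 86.2% of all windows with at least 1 match. In Smad6 the 2 SMAD cores abut as the palindrome GTCTAGAC, beginning 4 bases upstream of the start, a feature looked for after it was seen and present in 0.192% of windows. The E-box CANNTG, which reads the same on both strands, occurred 1 time each for Id2 and Smad6 and in 70.1% of all windows. These matches are letters in a window and say nothing of binding.

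Other genes of the pathway, 66 in number and sorted by role, covered ligands, antagonists, receptors, transducers, targets and the E protein partners. Of these, 50 passed the low-count filter and 9 had no count in any library. By edgeR's quasi-likelihood test, adjusted over all genes tested, 14 fell and 7 rose after ALP, or 42.0% of the 50 beside 30.9% of all genes. Their median log2 difference was -0.25. None passed when either control library was left out, although at an unadjusted 0.05 18 passed in the absence of control replicate A and 20 in that of control replicate B, against 28 in the full set. Leaving out ALP replicate A leaves a single ALP library, so the number passing in that setting is not read as a result.

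Known BMP targets other than the members lay on the low side in ALP. All 10 tested targets had both ALP libraries below both controls, as 37.5% of all genes did. By the test 6 of them fell, against a background of 12.9%, and their median log2 difference was -1.10. Msx1 (10 and 7 counts in ALP, 27 and 13 in control) passed the low-count filter only through its controls. So did Hey1 (7 and 5 counts in ALP, 24 and 15 in control) and Dlx5. Genes admitted that way can hardly come out higher in ALP, so their direction was partly set by the filter. Atoh8, a basic helix-loop-helix factor gene and BMP target, fell to 0.810 and 0.0646 CPM in ALP, against 6.23 and 3.77 CPM in control (log2 difference -3.44 ± 0.67, adjusted p = 0.0207). That rests on 14 and 1 counts in ALP, and leaving out ALP replicate A gave -6.12 and leaving out ALP replicate B gave -2.60. Dlx5, a homeobox gene, fell to 0.521 and 0.323 CPM in ALP, against 2.04 and 1.77 CPM in control (-2.14 ± 0.41, adjusted p = 0.0203). With 9 and 5 counts in ALP, below the filter's minimum count of 10, Dlx5 was tested only through its control libraries. Msx2, a homeobox gene of skin and its appendages, fell to 27.8 and 18.4 CPM in ALP, against 49.7 and 47.8 CPM in control (-1.08 ± 0.20, adjusted p = 0.0193). The epidermal factor genes Dlx3 and Gata3 and the homeobox gene Dlx2 made up the rest of the 6. As with the Id genes, ALP replicate B was the lower ALP library for all 10 targets, with a median of -1.48, against -0.83 in ALP replicate A. It was also the lower one for 50.6% of all genes tested. Among the 759 non-member genes between -1.5 and -0.9 in ALP replicate A, that share was 74.4%. The target list was chosen with earlier results of these data known, so its direction is not independent evidence. The summed markers of differentiated keratinocytes, with Krt1 the largest part, stood in the same library order. They reached 904 and 42.3 CPM in ALP and 3483 and 2871 CPM in control, although Ivl among them was called higher. Their part in the target values was not tested.

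Among 6 tested ligand genes, 1 fell and 1 rose. Bmp3, which encodes an atypical family member that opposes osteogenic BMPs, fell to 1.504 and 0.129 CPM in ALP, against 8.15 and 7.43 CPM in control (-3.19 ± 0.63, adjusted p = 0.0210). Only 2 Bmp3 counts were found in ALP replicate B, and leaving out ALP replicate A gave -5.84 and leaving out ALP replicate B gave -2.36. Bmp2 measured 11.5 and 1.68 CPM in ALP and 23.0 and 23.4 CPM in control and did not pass (-1.80 ± 0.70, adjusted p = 0.101). Gdf11, a ligand gene whose product acts mainly through activin receptors, rose to 5.32 and 5.69 CPM in ALP, against 1.47 and 2.91 CPM in control (1.33 ± 0.35, adjusted p = 0.0395). Bmp4 was scarce, with 24 and 19 counts in ALP and 17 and 37 counts in control.

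Genes of extracellular antagonists were found on both sides of the controls. Fst, which encodes follistatin, an activin and BMP trap, rose in ALP to 273 and 351 CPM, against 94.1 and 142 CPM in control (1.41 ± 0.22, adjusted p = 0.0155). Nbl1, which encodes a secreted BMP antagonist, fell to 19.2 and 21.6 CPM in ALP, against 29.3 and 30.6 CPM in control (-0.55 ± 0.12, adjusted p = 0.0276). Nog, the noggin gene, measured 6.65 and 5.95 CPM in ALP and 7.08 and 6.51 CPM in control. Sostdc1, a secreted BMP and Wnt antagonist gene named after its values were seen, measured 114 and 5.30 CPM in ALP and 362 and 311 CPM in control and did not pass (adjusted p = 0.146).

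Receptor genes outside the membership split evenly, with 2 of 9 tested higher and 2 lower. Acvr1, which encodes the type I receptor ALK2, rose to 78.7 and 84.6 CPM in ALP, against 45.8 and 44.4 CPM in control (0.86 ± 0.09, adjusted p = 0.0149). Acvrl1, which encodes ALK1, a type I receptor best known from endothelium, rose to 18.7 and 27.6 CPM in ALP, against 5.61 and 7.77 CPM in control (1.79 ± 0.26, adjusted p = 0.0151). Of 6 endothelial marker genes, Pecam1 and Kdr also rose and Tek fell, the last on 4 and 3 counts in ALP. Emcn had no count and Cdh5 had at most 2 counts in a library. Summed over the list, these markers reached 15.1 and 25.1 CPM in ALP and 6.23 and 7.77 CPM in control, and their part in the Acvrl1 result was not tested. Acvr2a, a type II receptor gene, fell to 34.5 and 31.5 CPM in ALP, against 44.0 and 47.1 CPM in control (-0.46 ± 0.11, adjusted p = 0.0302). It shares 7.84% of its exon bases with Orc4 on the opposite strand, which had 3084 counts in all against 2686 for Acvr2a, and reads of the pair may not be told apart. Acvr2b, the other type II gene that fell, was below 8 CPM in every library.

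Intracellular transducers and regulators had 3 of 13 tested genes lower and 2 higher. Smad9, which encodes the third BMP-activated SMAD, fell to 0.405 and 0.259 CPM in ALP, against 2.89 and 2.11 CPM in control (-2.87 ± 0.44, adjusted p = 0.0151). Smad9 had 7 and 4 counts in ALP, below the filter's minimum count of 10, so it was tested only through its control libraries. Smad1 fell to 48.3 and 34.7 CPM in ALP, against 67.8 and 66.7 CPM in control (-0.70 ± 0.17, adjusted p = 0.0321). Smad5 measured 119 and 106 CPM in ALP and 134 and 127 CPM in control, and Smad4 measured 109 and 101 CPM in ALP and 118 and 117 CPM in control, neither past the test. Smurf1, which encodes a ubiquitin ligase that marks SMAD1 and SMAD5 for degradation, rose to 327 and 417 CPM in ALP, against 167 and 193 CPM in control (1.05 ± 0.15, adjusted p = 0.0151). Fkbp1a, whose product FKBP12 holds type I receptors inactive, rose to 265 and 293 CPM in ALP, against 179 and 197 CPM in control (0.57 ± 0.10, adjusted p = 0.0166). Skil, a SMAD co-repressor gene, fell with an adjusted p of 0.0497.

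Of the 3 genes of E proteins, the partners that Id proteins hold, 1 fell. Tcf4 fell to 29.7 and 19.6 CPM in ALP, against 43.4 and 38.4 CPM in control (-0.73 ± 0.21, adjusted p = 0.0491), close to the threshold. Tcf3 measured 106 and 87.9 CPM in ALP and 120 and 127 CPM in control (adjusted p = 0.0692). Tcf12 measured 143 and 149 CPM in ALP and 164 and 152 CPM in control (adjusted p = 0.345).

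**Figure D5:**
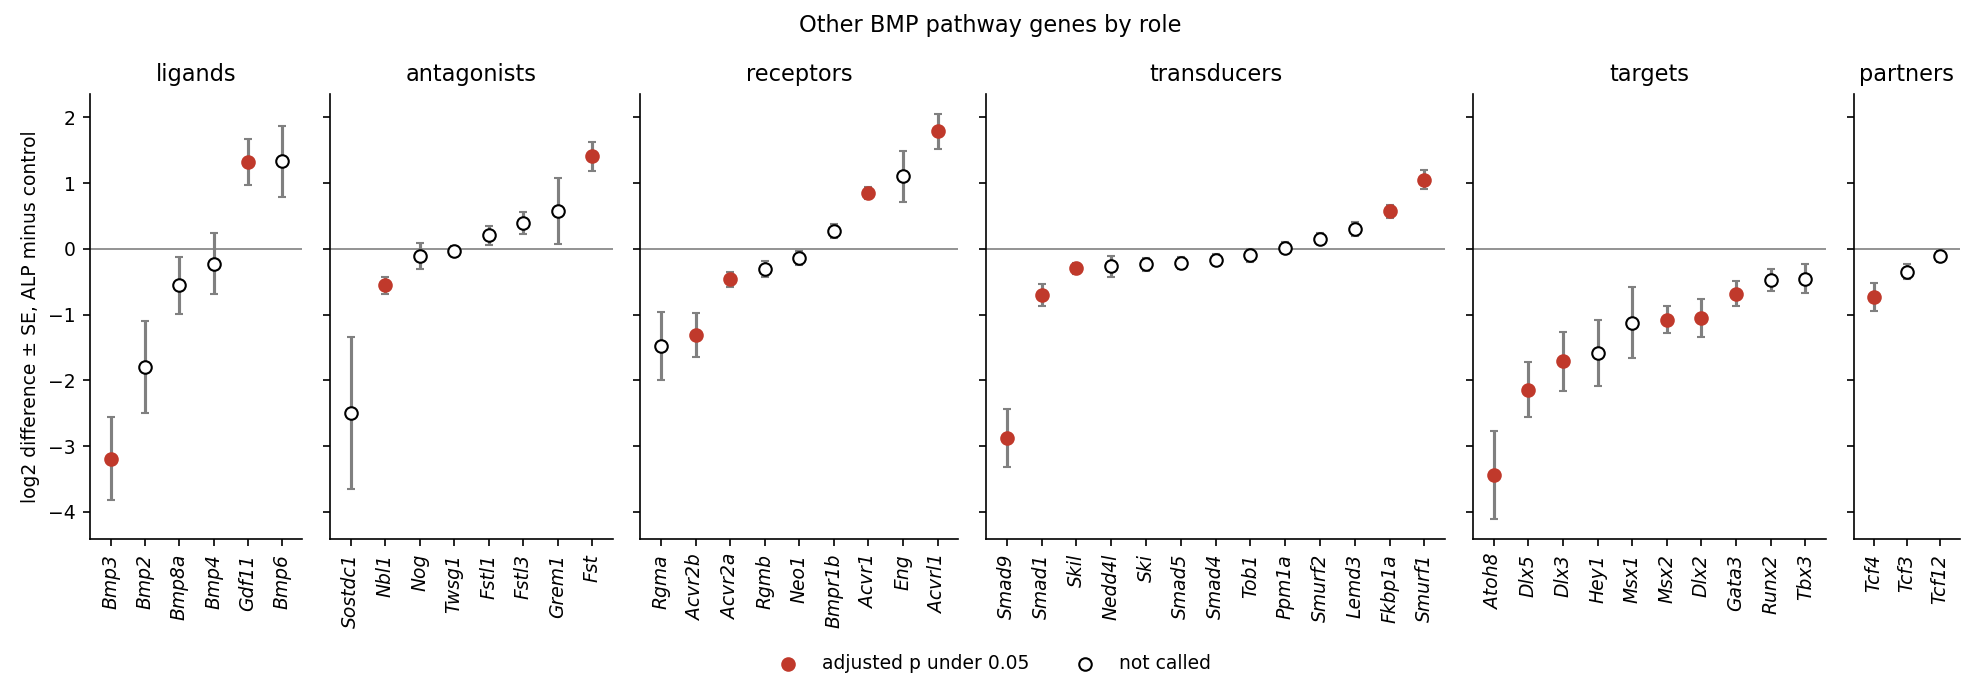
Log2 difference, ALP minus control, with standard errors (n = 2 per group) for 49 tested pathway genes outside the 10 members, sorted within each role. Filled points passed an adjusted p under 0.05 and open points did not. All 10 targets lie below 0, while ligands, antagonists, receptors and transducers lie on both sides of it.

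Markers of other cell types summed to far lower levels than the basal markers in every library. Fibroblast markers summed to 7.93 and 4.46 CPM in ALP and 17.5 and 13.6 CPM in control, with Dcn called lower and Lum and Dpt at 0 in all libraries. Immune markers summed to 7.12 and 5.50 CPM in ALP and 9.51 and 10.2 CPM in control, with Cd3e and Cd207 at 0. Smooth muscle and pericyte markers summed to 11.9 and 9.89 CPM in ALP and 31.4 and 30.7 CPM in control, nearly all of it Cspg4, with Des at 0. Melanocyte markers, all 6 detected, summed to 66.2 and 54.2 CPM in ALP and 62.7 and 57.7 CPM in control.

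The genes whose profile over the 4 libraries lay nearest to that of Id1, the member with the largest difference, were Clca3a2, Stfa3 and Tspear. The search covered 10003 protein-coding genes averaging 5 CPM or more, and their distances from the Id1 profile were 0.18, 0.23 and 0.29 on the log2 scale. Stfa3, of the stefin family of cysteine protease inhibitors, measured 370.3 and 24.2 CPM in ALP and 1274 and 1062 CPM in control. Clca3a2, of the calcium-activated chloride channel regulator family, measured 164 and 10.6 CPM in ALP and 545 and 453 CPM in control. Both belong to clusters of close paralogs, so their counts are uncertain.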

How the data were processed

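Cultures were lysed in TRIzol, per the labels' protocols, and neither the library kit nor its strandedness is stated there. The authors deposited 1 table with a raw count per gene and library. Alignment used HISAT2 2.0.5, and featureCounts 1.5.0-p3 did the counting, per the submitters' processing notes, which name the human build GRCh38. The identifiers are mouse ones, and 99.9% of them occur in GENCODE M21 (GRCm38), 98.3% of these with the same coordinates. The table's column numbers, up to 3, differ from the labels', so columns were assigned to groups only. The 4 deposited FPKM columns were not used, and levels per length were computed from counts and gene length.

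Counts were fitted in R 4.3.3 with edgeR 4.0.16: filterByExpr (minimum count 10, minimum total 15), TMM scaling, glmQLFit in its bias-adjusted form and glmQLFTest, two-sided, on group. Benjamini-Hochberg adjustment ran over the 14056 genes tested, with calls made under 0.05. Standard errors are the log2 difference divided by the square root of the F statistic. Per-library log2 values add 0.5 to each count. DESeq2 1.42.0 and limma 3.58.1 were alternatives. The fit leaves 2 residual degrees of freedom. At these depths 3 counts correspond to between 0.170 and 0.194 CPM, and counting intervals cover counting error only. The members, the pathway and marker lists and the naming rule were chosen with earlier results of these data known. The rule names every member and, per pathway role, up to 3 tested genes with the smallest p-values, and 1 of these is not reported here. Dlx2, Dlx3, Gata3, Bmp4, Nog, Sostdc1, Acvr2b, Smad1, Smad4, Smad5 and Skil were named outside it after their values were seen.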

Additional observations from a re-analysis of the deposited data

How the results depend on the processing

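No paired analysis was possible because the numbers in the table's columns are not those of the labels and the groups share a single one. Without 1 library, the number of genes called ranged from 0 to 7518, with 0 to 3872 higher and 0 to 3646 lower in ALP. For the other BMP pathway genes this range was 0 to 35, with 0 to 11 higher and 0 to 24 lower. The highest counts came without ALP replicate A, where the spread comes from the control pair alone. The 0 arose without either control library, where 3380 (without replicate A) and 4131 (without replicate B) genes had an unadjusted p under 0.05. With no low-count filter edgeR called 0 genes, 0 of them higher and 0 lower, and 0 pathway genes in either direction, although 7068 genes had an unadjusted p under 0.05; DESeq2 and limma-voom called 4091 and 4741. Of the 10 members, 4 were called by edgeR with all libraries, 3 by DESeq2, 6 by limma-voom and 0 without the filter. Over all genes the same settings called 4350, 4091, 4741 and 0. The members' count also changed when 1 library was left out.

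All 10 members kept their direction in every alternative that gave a value. The member values that moved by more than the spread between libraries were those without ALP replicate A, at -5.67 for Id1, -3.60 for Id2, -2.47 for Id3, -3.36 for Id4, -3.15 for Smad6, -3.17 for Bambi and -0.66 for Bmp7. Without ALP replicate B the differences were smaller, at -1.42 for Id1, -1.18 for Id2, -0.97 for Id3, -1.48 for Id4, -1.34 for Smad6, -0.58 for Bambi and -0.13 for Bmp7. By limma-voom Id1 was at -3.42. Without control replicate A Bambi was at -0.82. Levels per length were not set against the deposited FPKM, which were not used. Tcf4 lost its call in the older form of the quasi-likelihood fit, an alternative chosen after seeing the data (adjusted p = 0.0517). Bmp2 passed by limma-voom (adjusted p = 0.0416) and when either ALP library was left out, at -3.79 (replicate A) and -0.999 (replicate B). Depth limits Bambi most, with 2 counts in ALP replicate B.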
